A study of Mus musculus with 12 samples.

Results

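Mouse acute myeloid leukaemia (AML) cells were profiled by RNA-seq after 24 h with RAD001, an mTOR inhibitor, or GDC0941, an inhibitor of PI3 kinases, and the 2 treatments were compared as 1 group with the vehicle DMSO. Of the 12 libraries of the study, 9 belong to this comparison: 3 with DMSO, 3 with RAD001 at 26 µM and 3 with GDC0941 at 20 µM. The treated group has 6 libraries. Every group, DMSO included, consisted of primary leukaemia cells of genotype NRASG12V/Mll-AF9 on a (FVB/n X C57/BL/6J) F1 background, kept in serum with GM-CSF. The remaining 3 libraries, treated with the MEK inhibitor PD325901 at 20 µM for the same time, were used only where named. How NRASG12V is driven, and whether the numbered replicates are separate cultures or animals, is not given in the sources used here, so p-values measure the spread between these libraries, which may be technical.

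Class I PI3 kinases make the membrane lipid that recruits and activates AKT, and AKT in turn activates mTOR complex 1 and holds FOXO transcription factors out of the nucleus. RAD001 (everolimus) binds FKBP12 and, as that complex, blocks mTOR complex 1, whereas GDC0941 acts upstream at the PI3 kinases themselves. mTOR complex 1 promotes protein synthesis, ATF4-driven amino acid supply, glycolysis, lipid synthesis and passage through G1, and restrains autophagy and the lysosomal factor TFEB. In leukaemia with mutant NRAS both this route and the RAF, MEK and ERK route lie downstream of RAS.

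Of 23234 genes in the table, 10260 had a mean of at least 1 FPKM (fragments per kilobase of transcript, scaled to the library's size) over the 9 libraries and were tested. A gene was counted as shared when all 6 inhibitor values lay on the same side of all 3 DMSO values. All 6 lay above DMSO for 1204 genes (11.7% of those tested) and below for 1084 (10.6%). The limma test of the 6 against the 3 libraries, on log2(FPKM + 1), called 743 genes higher (7.24%) and 823 lower (8.02%) at an adjusted p under 0.05. Changes are given on this log2 scale, ± the standard error of the fit. Both criteria were met by 705 genes that rose (6.87%) and 766 that fell (7.47%). Most genes named below by rule were picked from these, ranked by the smaller of the 2 single-inhibitor changes. For them, lack of overlap with DMSO and a limma adjusted p under 0.05 follow from that choice and are no separate result. The ranking also favours genes that both inhibitors changed alike. Changes of at least 1 on the log2 scale with each inhibitor separately were more frequent downward, with 223 separated genes (2.17%), than upward, with 81 (0.789%). The median joint change, treated minus DMSO, was 0.40 among genes separated above, and the single inhibitors gave 0.39 for RAD001 and 0.40 for GDC0941. Among genes separated below it was -0.63, with -0.65 and -0.60. At the upper edge of the criterion Pex3 was just outside, with a highest DMSO value of 8.3169 and a lowest treated value, with RAD001, of 8.31555 FPKM. On the lower side Arhgdib was just inside, at 542.2 in DMSO and 542.0 with RAD001, and Pfas just outside, at 2.76293 in DMSO and 2.76343 with GDC0941.

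Replicate 1 stood apart from replicates 2 and 3 in each group: the highest Spearman correlation across genes of DMSO replicate 1 with its group was 0.979, against 0.996 between the other two, and the same pairs of values were 0.973 and 0.996 for RAD001 and 0.971 and 0.986 for GDC0941. Between DMSO and the inhibitor libraries the correlations were 0.932 to 0.953. The step between low FPKM values put the libraries at 0.847 to 1.21 times the depth of DMSO replicate 1, and the absolute depth was unknown. Total FPKM over all genes ran from 471758 to 485164 in DMSO, 539014 to 587581 with RAD001 and 506342 to 555550 with GDC0941. The number of calls fell when a DMSO library was left out, with 229 higher and 364 lower without DMSO replicate 2, 280 and 383 without replicate 3 and 415 and 547 without replicate 1. Leaving out a DMSO library also lowers the power of the test, so a lost call need not mean a smaller change. Without GDC0941 replicate 1 the calls were 1027 higher and 1265 lower, and 1710 genes were separated below. Without replicate 1 of every group, 756 genes were called higher and 1034 lower, and 2360 and 2561 were separated among fewer libraries. In these bulk libraries fewer cells of a type and less RNA per cell cannot be told apart.

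**Figure D1:**
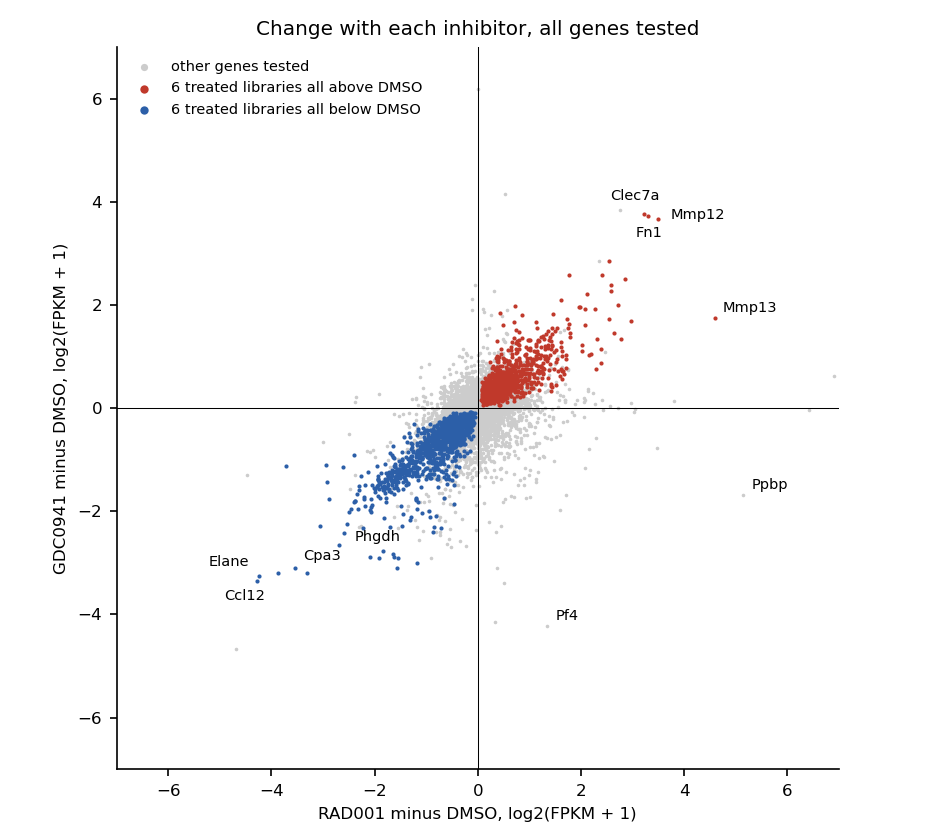
Change with RAD001 (horizontal axis) and GDC0941 (vertical axis) against DMSO on the log2(FPKM + 1) scale, 1 point for each of the 10260 genes tested. Red points are the 1204 genes with all 6 treated libraries above DMSO and blue points the 1084 with all 6 below; both axes share the DMSO libraries.

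Of the drug target genes, Mtor and Rptor moved little and Fkbp1a rose, while no PI3 kinase gene passed the joint test. Mtor, the kinase, measured 5.11, 5.26 and 4.96 FPKM in DMSO, 5.78, 5.84 and 5.47 with RAD001 and 6.42, 5.27 and 3.71 with GDC0941, so the groups overlapped, and its joint log2 change was 0.06 ± 0.13 (limma, adjusted p = 0.809). Rptor, which encodes the raptor subunit of complex 1, changed by 0.02 ± 0.19 (limma, adjusted p = 0.961). Fkbp1a, the gene of the RAD001-binding protein FKBP12, lay above DMSO in every treated library and rose, from 99.9, 117 and 115 FPKM in DMSO to 167, 146 and 138 with RAD001 and 172, 178 and 208 with GDC0941, a joint change of 0.59 ± 0.13 (limma, adjusted p = 0.0141). Leaving out any 1 of the DMSO libraries ended that call, with adjusted p from 0.0517 to 0.0643. Of the catalytic PI3 kinase genes, Pik3ca (0.31 ± 0.09) and Pik3cd (0.29 ± 0.09) were separated above DMSO without passing the limma test, at adjusted p of 0.0511 and 0.0502. Pik3cb (0.72 ± 0.23, adjusted p = 0.0614 by limma) and Pik3cg (0.21 ± 0.14, adjusted p = 0.314) overlapped with DMSO. The Pik3ca call passed without GDC0941 replicate 3 (limma, adjusted p = 0.0496), the Pik3cd call without GDC0941 replicate 1 (0.0152) and the Pik3cb call without DMSO replicate 1 or RAD001 replicate 3 (0.04996 and 0.0460).

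Around the targets, 4 of 31 tested genes of the PI3K, AKT and mTOR pathway rose and 3 fell, shares near those over all genes (7.24% and 8.02%). The 3 that fell encode negative regulators of mTOR complex 1. Ddit4 (REDD1), an inhibitor of the pathway that stress induces, measured 15.3, 8.84 and 13.96 FPKM in DMSO, 6.58, 3.06 and 2.75 with RAD001 and 2.28, 1.53 and 1.47 with GDC0941, with all treated libraries below DMSO and a joint change of -1.87 ± 0.33 (limma, adjusted p = 0.00622). The sestrin genes Sesn1 and Sesn2, whose products sense amino acids and stress upstream of mTOR, fell, with log2 changes of -1.14 ± 0.19 (limma, adjusted p = 0.00471) and -1.07 ± 0.18 (limma, adjusted p = 0.00545). Akt1 (0.31) and Akt2 (0.25), which encode AKT kinases and were named after their values were seen, rose, as did Fkbp1a. The count of 4 was 2 without DMSO replicate 1 and 1 without DMSO replicate 2 or 3.

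Among FOXO targets and receptors under feedback control, 4 of 27 rose and 3 fell, against 7.24% and 8.02% of all genes. The median joint change was 0.18 against 0.01 over all genes, but the inhibitors differed, with medians of 0.29 for RAD001 and -0.04 for GDC0941. Igf1r, a receptor tyrosine kinase that signals to PI3K, rose by 0.95 ± 0.20 (limma, adjusted p = 0.0115), and Klf6 rose by 0.74 ± 0.15 (limma, adjusted p = 0.00982); Igf1r lost the call without DMSO replicate 2 or 3 (adjusted p 0.0681 and 0.0599) and Klf6 without DMSO replicate 3 (0.0595). Pink1 (0.61) also rose, and Tsc22d3 (-0.71), Pik3ip1 (-0.84) and Sesn1 fell, the first 3 of these 4 named after their values were seen. Without DMSO replicate 3 the rising count was 2, and without any 1 of the DMSO libraries, RAD001 replicate 2 or RAD001 replicate 3 the falling count was 1.

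The largest shared rises included genes of macrophages, adhesion and matrix remodelling. Mmp12, the macrophage elastase, measured 331, 198 and 395 FPKM in DMSO, 3866, 3256 and 3017 with RAD001 and 4348, 3535 and 3541 with GDC0941. The lowest treated library was at 3017 FPKM and the highest DMSO library at 395. The ratio of means was 11.7 and the joint log2 change 3.59 ± 0.20 (limma, adjusted p = 5.77e-05). Fn1, fibronectin, rose from 4.44, 2.48 and 6.86 FPKM in DMSO to 91.5, 39.6 and 37.4 with RAD001 and 104, 68.99 and 45.9 with GDC0941, with a joint change of 3.51 ± 0.37 (limma, adjusted p = 8.32e-04). Clec7a, the beta-glucan receptor dectin-1, rose 12.2-fold, with 19.00, 28.1 and 35.6 FPKM in DMSO, 163, 331 and 315 with RAD001 and 209, 519 and 479 with GDC0941. No treated library overlapped with DMSO, at a joint change of 3.49 ± 0.36 (limma, adjusted p = 7.64e-04). For these 3 genes RAD001 minus GDC0941 was -0.17 ± 0.23, -0.42 ± 0.42 and -0.54 ± 0.40. They were ranked by the smaller of the 2 single-inhibitor changes, which favours genes that both inhibitors changed alike, so small differences here are no separate result.

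Further down the same ranking, Selp (P-selectin) rose by 2.69 ± 0.18 (limma, adjusted p = 1.16e-04) and Tm7sf4 (DC-STAMP, needed for fusion of macrophages into osteoclasts) by 2.68 ± 0.26 (limma, adjusted p = 4.89e-04). F3, tissue factor, was near 1 FPKM in DMSO (1.13, 0.531 and 1.05) and measured 11.6, 5.96 and 3.58 with RAD001 and 6.61, 5.52 and 6.77 with GDC0941. Every treated library was above every DMSO library, a joint change of 1.96 ± 0.26 (limma, adjusted p = 0.00212). Cd14, the lipopolysaccharide co-receptor, measured 254, 122 and 134 FPKM in DMSO, 921, 594 and 579.6 with RAD001 and 729.8, 481 and 655 with GDC0941. All 6 treated values lay above DMSO, and the joint change was 2.0 ± 0.25 (limma, adjusted p = 0.00181). The tetraspanin Cd9 rose by 1.97 ± 0.17 and the aryl hydrocarbon receptor Ahr by 2.10 ± 0.20 (limma, adjusted p = 3.23e-04 and 5.30e-04). The unannotated genes A430084P05Rik and E230016K23Rik rose by 2.48 ± 0.19 and 2.16 ± 0.17, with adjusted p of 1.93e-04 and 1.96e-04 by limma.

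**Figure D2:**
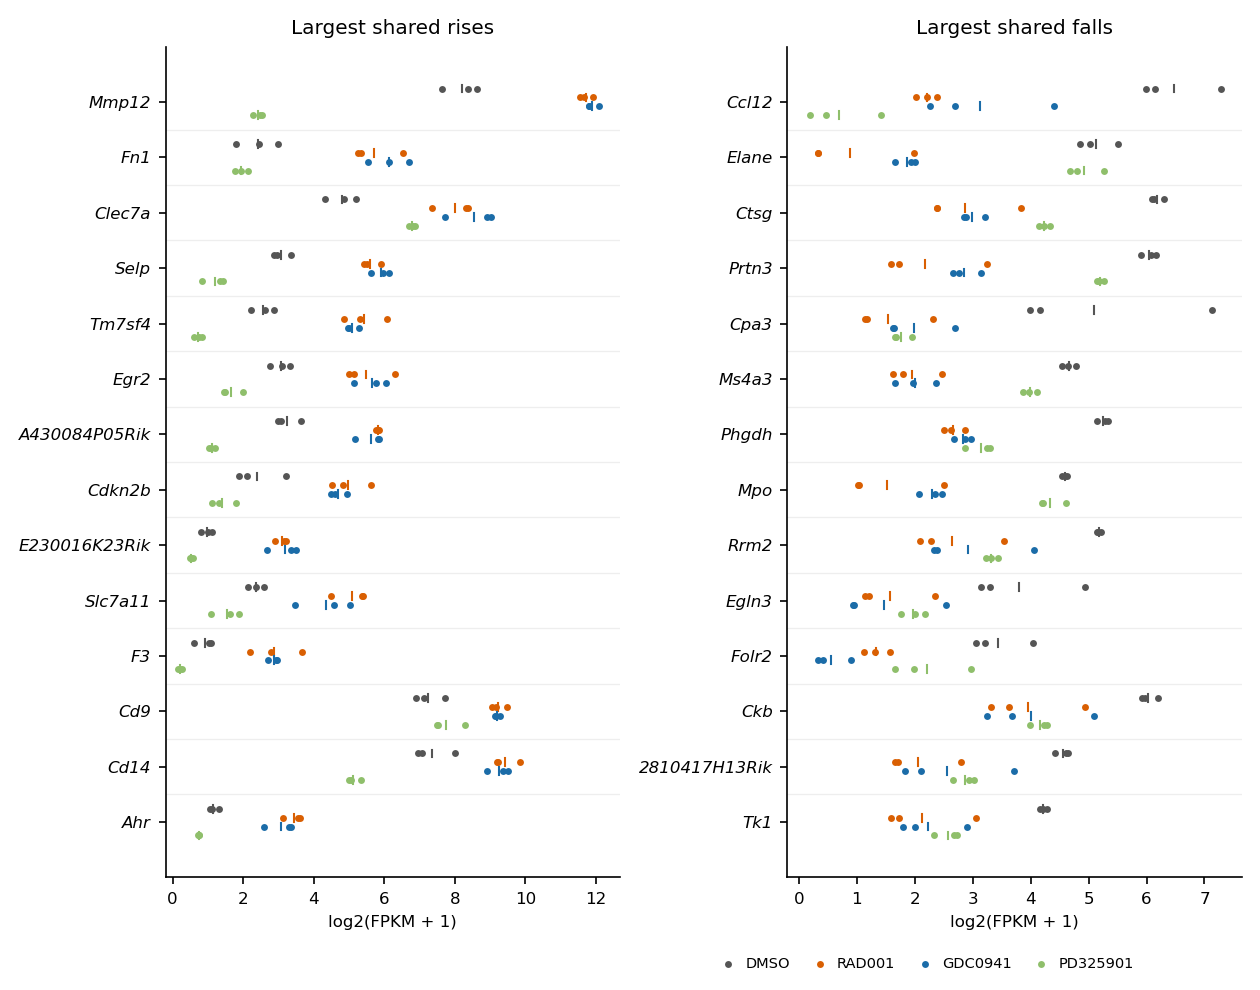
Expression in each library, log2(FPKM + 1), of the 14 largest shared rises (left) and the 14 largest shared falls (right). Each dot is 1 library, each short bar the mean of 3, and colours mark DMSO, RAD001, GDC0941 and PD325901. RAD001 and GDC0941 dots lie on the same side of the DMSO dots for every gene because the selection required it, and the PD325901 dots of Mmp12 lie below DMSO.

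As a group, 7 of 15 matrix protease and plasminogen activation genes rose and 1 fell, against 7.24% and 8.02% of all genes. The median change was 0.75, with 1.24 for RAD001 and -0.03 for GDC0941. Mmp13, a collagenase, measured 38.6, 20.3 and 24.5 FPKM in DMSO, 461, 847 and 772 with RAD001 and 73.4, 102 and 104 with GDC0941, the RAD001 libraries far above the GDC0941 ones and both above DMSO. Its joint change of 3.17 ± 0.83 (limma, adjusted p = 0.0311) lost the call without any 1 of the DMSO libraries or RAD001 replicate 1 (adjusted p 0.0525 to 0.125). Plaur, the urokinase receptor, rose from 188, 227 and 254 FPKM to 929.6, 1047 and 870.3 with RAD001 and 487, 774 and 816 with GDC0941. The groups did not overlap, and the joint change was 1.84 ± 0.22 (limma, adjusted p = 0.00129). The gene of its ligand, Plau, was the 1 that fell (-1.05), named after its value was seen, and its GDC0941 replicate 1 overlapped with DMSO. The count of 7 was 4 without DMSO replicate 2; the falling count was 2 without RAD001 replicate 1 and 0 without any 1 DMSO library, RAD001 replicate 2 or 3 or GDC0941 replicate 2 or 3.

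The promoters of Mmp12, Mmp13 and Plaur hold the letters bound by AP-1, the FOS and JUN dimer that is known to act on matrix metalloproteinase genes. The 250 bases before the RefSeq start site (GRCm38.p6) were searched on both strands for TGANTCA, and the windows are shown 5′ to 3′ on the gene's strand with the match in capitals.
Mmp12 (chr9:7347124-7347373, plus strand): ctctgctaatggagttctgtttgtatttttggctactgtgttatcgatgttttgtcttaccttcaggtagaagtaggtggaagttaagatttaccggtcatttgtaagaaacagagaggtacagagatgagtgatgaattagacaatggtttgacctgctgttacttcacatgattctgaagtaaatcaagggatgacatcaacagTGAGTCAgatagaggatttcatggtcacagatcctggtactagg
Mmp13 (chr9:7272264-7272513, plus strand): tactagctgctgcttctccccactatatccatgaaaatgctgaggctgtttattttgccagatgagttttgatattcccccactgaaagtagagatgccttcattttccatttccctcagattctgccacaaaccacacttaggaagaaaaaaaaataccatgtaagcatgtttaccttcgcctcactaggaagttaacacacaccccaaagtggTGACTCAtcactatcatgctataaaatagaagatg
Plaur (chr7:24462233-24462482, plus strand): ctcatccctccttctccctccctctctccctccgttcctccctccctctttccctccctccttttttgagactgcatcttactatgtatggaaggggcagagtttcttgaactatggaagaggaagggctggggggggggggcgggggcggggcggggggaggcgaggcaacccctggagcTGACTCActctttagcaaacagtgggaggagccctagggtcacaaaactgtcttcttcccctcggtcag
The match began 44 bases before the start in Mmp12, 35 in Mmp13 and 69 in Plaur. Mmp12 has 2 windows, of which 1 holds the match. Counting a gene when any of its windows matches, 7.82% of the 27025 genes with a window hold the letters, and of the 11 matrix protease genes with a window 4 do (36.4%). In the macrophage list 3 of 19 genes held it, and in the list of ERK output genes 0 of 17. The match describes the letters and does not show binding.

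Of 26 monocyte and macrophage genes tested, 9 rose and 1 fell, against 7.24% and 8.02% of all genes, with a median change of 0.39. Clec4n (dectin-2) measured 539.9, 472 and 495 FPKM in DMSO, 1459, 1819 and 1717 with RAD001 and 1305, 1798 and 1942 with GDC0941. No treated library overlapped with DMSO, which the selection required, at a joint change of 1.72 ± 0.13 (limma, adjusted p = 1.96e-04). Clec7a, Tm7sf4 and Cd14 belong to this list as well. The integrin subunit genes Itgax (CD11c, 1.64) and Itgam (CD11b, 0.97) and the Fc receptor genes Fcgr2b (1.85) and Fcgr3 (0.97) rose, and Acp5, the osteoclast acid phosphatase, fell (-1.13); these 5 were named after their values were seen. Lyz2, a usual marker of these cells, is listed at 0 in all 9 libraries and was not tested. Between 8 and 11 members rose when single libraries were left out.

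Genes that report on other signalling routes also rose. In the list of ERK output, 7 of 25 rose and 0 fell, against 7.24% and 8.02% of all genes, with a median of 0.34. Egr2, an immediate early transcription factor, measured 9.03, 7.62 and 5.76 FPKM in DMSO, 77.4, 34.01 and 31.02 with RAD001 and 53.6, 34.4 and 64.5 with GDC0941, at least 3 times the highest DMSO value in every treated library. Every treated library was above every DMSO library, a joint change of 2.50 ± 0.30 (limma, adjusted p = 0.00138). Phlda1, a pleckstrin-homology gene induced by growth factors, rose from 9.14, 4.51 and 4.88 FPKM to 54.9, 37.3 and 30.01 with RAD001 and 18.2, 25.2 and 22.9 with GDC0941. Both inhibitors kept every library above DMSO, and the joint change was 2.14 ± 0.32 (limma, adjusted p = 0.00342). Egr1 and the AP-1 gene Fosl2 rose by 1.37 ± 0.29 (limma, adjusted p = 0.0119) and 1.02 ± 0.20 (limma, adjusted p = 0.00884). Egr1 lost the call without DMSO replicate 3 (adjusted p = 0.0679 by limma) and Fosl2 without DMSO replicate 2 or 3 (0.0574 and 0.0529), and the count of 7 was 3 without DMSO replicate 2 and 2 without DMSO replicate 3.

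In the list of STAT5 feedback genes and cytokine receptors, 6 of 20 rose and 0 fell, against 7.24% and 8.02% of all genes. The median was 0.46. STAT5 is activated by GM-CSF, which was in the medium of every group. Cish, a STAT5 target that inhibits cytokine receptors, was even in DMSO at 4.72, 4.86 and 4.67 FPKM and measured 21.9, 17.98 and 15.8 with RAD001 and 10.03, 17.4 and 22.7 with GDC0941. All treated libraries were more than double the highest DMSO value, and the joint change was 1.65 ± 0.21 (limma, adjusted p = 0.00186). Socs2, of the same family, rose by 1.34 ± 0.27 (limma, adjusted p = 0.0111), and the kinase genes Pim1 and Pim3 by 1.10 ± 0.21 (limma, adjusted p = 0.00822) and 0.98 ± 0.21 (limma, adjusted p = 0.0148). Without GDC0941 replicate 3, 1 member of the list fell. Without DMSO replicate 2 the rising count was 3 and Socs2 lost its call (adjusted p = 0.0634, limma); Pim3 lost its call without DMSO replicate 2 or 3 (0.0794 and 0.0806).

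Chemokine, cytokine and NF-kB target genes were mixed, with 4 of 30 rising and 1 falling, against 7.24% and 8.02% of all genes. Ccl6, a chemokine of the macrophage inflammatory family, had the highest mean FPKM of the list over the 9 libraries, with 725, 1029.8 and 1250.3 FPKM in DMSO, 3333, 3503 and 3133 with RAD001 and 4990.0, 6087 and 6474 with GDC0941. It rose by 2.17 ± 0.28 (limma, adjusted p = 0.00186), and GDC0941 libraries lay above RAD001 libraries. Ccl9 rose by 1.37 ± 0.20 (limma, adjusted p = 0.00307), from 519, 355 and 377 FPKM to 1491, 1248 and 1142 with RAD001 and 864, 869 and 918 with GDC0941. Csf3, the gene of G-CSF, was below 0.2 FPKM in DMSO (0.197, 0.0449 and 0.0420) and measured 5.08, 1.90 and 1.22 with RAD001 and 0.652, 1.20 and 1.88 with GDC0941. Its change of 1.32 ± 0.34 (limma, adjusted p = 0.0291) on the log2(FPKM + 1) scale understates a ratio at such low levels, and it lost the call without any 1 DMSO library, RAD001 replicate 2 or GDC0941 replicate 3 (adjusted p 0.0503 to 0.112). Ccl12 (MCP-5), a monocyte attractant, had the largest joint fall among the separated genes, from 156, 69.5 and 62.6 FPKM to 4.19, 3.07 and 3.62 with RAD001 and 20.1, 3.80 and 5.46 with GDC0941. Treated and DMSO libraries did not overlap, a joint change of -3.81 ± 0.51 (limma, adjusted p = 0.00203). The rising count was 2 without any 1 of the DMSO libraries, RAD001 replicate 1 or GDC0941 replicate 3, and the falling count was 2 without RAD001 replicate 2 or GDC0941 replicate 1.

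Genes of primary granules and early granulocytes had the lowest list median after the mitosis, ATF4 and S phase lists, a change of -1.02. Of the 13 tested, 6 fell and 0 rose, against 8.02% and 7.24% of all genes. Elane, neutrophil elastase, measured 44.2, 31.7 and 27.8 FPKM in DMSO, 2.95, 0.258 and 0.260 with RAD001 and 2.99, 2.83 and 2.16 with GDC0941, with no overlap, and fell, with a log2 change of -3.75 ± 0.43 (limma, adjusted p = 0.00129). Prtn3 (proteinase 3) and Ctsg (cathepsin G), stored in the same granules, changed by -3.53 ± 0.37 (limma, adjusted p = 7.62e-04) and -3.25 ± 0.29 (limma, adjusted p = 3.51e-04). Mpo, myeloperoxidase, was steady in DMSO at 22.2, 23.8 and 23.2 FPKM and measured 4.65, 1.03 and 1.06 with RAD001 and 4.53, 3.23 and 4.07 with GDC0941. All 6 treated values lay below DMSO, and the joint change was -2.68 ± 0.36 (limma, adjusted p = 0.00205). Ms4a3, a marker of granulocyte and monocyte progenitors, fell, with a log2 change of -2.68 ± 0.20 (limma, adjusted p = 1.93e-04). Between 5 and 7 members of the list fell when single libraries were left out, and 1 rose without DMSO replicate 1 or GDC0941 replicate 1.

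Cpa3, mast cell carboxypeptidase, was also among the largest falls, with 139, 16.9 and 14.9 FPKM in DMSO, 3.97, 1.20 and 1.25 with RAD001 and 5.49, 2.14 and 2.07 with GDC0941. Every treated library was below every DMSO library, a joint change of -3.33 ± 0.65 (limma, adjusted p = 0.00936). In DMSO, replicate 1 was above the other two by more than 8 times, and without it the joint change was -2.31 (limma, adjusted p = 0.0131). The summed level of the 9 marker genes of mast cells, basophils and eosinophils moved with it, from 22.4 to 167 FPKM over the DMSO libraries, 2.22 to 14.5 with RAD001 and 5.06 to 7.33 with GDC0941. Of the 3 tested genes of that list, Cpa3 and Mcpt8 (-1.28) fell, while the defining mast cell genes Tpsb2 and Fcer1a were at or below 0.126 FPKM in all 9 libraries. The part of such cells in the falls was not tested.

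Genes of the MLL fusion and HoxA program, which the MLL-AF9 fusion protein sustains, fell in 6 of 15 cases and rose in 1. Over all genes 8.02% fell and 7.24% rose. Myb, a transcription factor required by this leukaemia, measured 7.39, 8.01 and 7.54 FPKM in DMSO, 2.02, 1.65 and 1.71 with RAD001 and 1.24, 1.93 and 2.07 with GDC0941, with tight groups. The groups did not overlap, and the joint change was -1.65 ± 0.11 (limma, adjusted p = 1.16e-04). Lmo2, Cbx5 and Hmgb3 fell, with log2 changes of -0.81 ± 0.14 (limma, adjusted p = 0.00569), -0.77 ± 0.12 (limma, adjusted p = 0.00404) and -0.98 ± 0.21 (limma, adjusted p = 0.0145). Hoxa9, at 1.2955 to 2.0466 FPKM, was separated below DMSO with a change of -0.20 ± 0.10 that did not pass the test (limma, adjusted p = 0.181), and Jmjd1c (0.58) was the 1 that rose, both named after their values were seen. Without DMSO replicate 2 or 3 the falling count was 3 and Hmgb3 lost its call (adjusted p 0.0703 at most); the rise was lost without any 1 DMSO library, RAD001 replicate 1 or 2 or GDC0941 replicate 2, and 2 members rose without GDC0941 replicate 3.

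Of 18 stem and progenitor genes, 8 were expressed enough to be tested, and 2 fell, beside 8.02% of all genes. Cd34, the progenitor surface antigen, measured 34.5, 19.6 and 17.9 FPKM in DMSO, 10.9, 5.16 and 4.43 with RAD001 and 8.33, 2.42 and 2.58 with GDC0941, with replicate 1 highest in each group. Both inhibitors kept every library below DMSO, and the joint change was -2.01 ± 0.41 (limma, adjusted p = 0.0107). Without DMSO replicate 1 the change was -1.72 and missed the threshold (limma, adjusted p = 0.0506). Erg, an ETS factor of haematopoietic stem cells, fell, with a log2 change of -0.59 ± 0.15 (limma, adjusted p = 0.0237), and its call was lost without DMSO replicate 1 or 2 (0.108 at most). The count of 2 was 1 without either of these libraries.

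The amino acid response fell with both inhibitors, and its list median was also below DMSO with the MEK inhibitor PD325901 (-1.20, -1.07 and -1.05 in its libraries). Of 23 tested targets of ATF4, the transcription factor that mTOR complex 1 and amino acid shortage induce, 17 fell and 2 rose, against 8.02% and 7.24% of all genes, and the median change was -1.22 (-1.20 with RAD001 and -1.28 with GDC0941). Phgdh, the first enzyme of serine synthesis, measured 34.4, 39.3 and 37.8 FPKM in DMSO, 6.30, 5.16 and 4.67 with RAD001 and 6.88, 5.36 and 6.31 with GDC0941. All treated libraries lay below DMSO, which the selection required, and the joint change was -2.50 ± 0.11 (limma, adjusted p = 1.56e-05). Pck2, the mitochondrial phosphoenolpyruvate carboxykinase, and Trib3, a pseudokinase and ATF4 target, fell, with log2 changes of -1.71 ± 0.14 (limma, adjusted p = 1.96e-04) and -1.59 ± 0.28 (limma, adjusted p = 0.00608). Asns, asparagine synthetase, fell by 1.58, Shmt2 by 1.65, Mthfd2 by 1.52 and Atf4 itself by 0.68 on the log2 scale, these 4 named after their values were seen. Between 14 and 17 members fell when single libraries were left out.

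Slc7a11, the cystine transporter subunit and an ATF4 and NRF2 target, went the other way. It measured 5.05, 3.40 and 4.14 FPKM in DMSO, 21.6, 40.9 and 40.5 with RAD001 and 10.2, 31.5 and 22.9 with GDC0941, lowest in replicate 1 of each treatment. Treated and DMSO libraries did not overlap, a joint change of 2.36 ± 0.38 (limma, adjusted p = 0.00404). Cebpb (1.17), a partner of ATF4 named after its value was seen, was the other member that rose. The promoters of Asns, which fell, and Slc7a11, which rose, both hold the core of the amino acid response element, TGATGNAA, within 250 bases before the start (RefSeq, GRCm38.p6, both strands searched, matches in capitals).
Asns (chr6:7693210-7693459, minus strand): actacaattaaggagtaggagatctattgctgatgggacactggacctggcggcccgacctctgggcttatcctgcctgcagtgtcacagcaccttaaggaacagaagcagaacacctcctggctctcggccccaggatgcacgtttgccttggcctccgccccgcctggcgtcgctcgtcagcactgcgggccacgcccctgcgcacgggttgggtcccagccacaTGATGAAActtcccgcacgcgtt
Slc7a11 (chr3:50443614-50443863, minus strand): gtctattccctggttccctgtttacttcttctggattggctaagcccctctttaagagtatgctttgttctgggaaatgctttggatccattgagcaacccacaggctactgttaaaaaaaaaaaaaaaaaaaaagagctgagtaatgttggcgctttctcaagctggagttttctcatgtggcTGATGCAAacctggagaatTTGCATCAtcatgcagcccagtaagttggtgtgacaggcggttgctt
The match began 23 bases before the start in Asns, and the 2 in Slc7a11 began 66 and 47 bases before it, on opposite strands. By the same count the letters occur in 3.91% of all genes with a window, in 5 of the 21 ATF4 list genes with a window (23.8%: Asns, Chac1, Nupr1, Pck2 and Slc7a11) and in 3 of 12 tRNA synthetase genes.

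The enzymes that charge tRNAs fell together by a smaller amount: 14 of 20 cytosolic aminoacyl-tRNA synthetase genes fell, 0 rose, 16 were separated below DMSO, and the median change was -0.57. Over all genes 8.02% fell and 10.6% were separated below. Yars measured 25.4, 25.9 and 26.2 FPKM in DMSO, 10.8, 10.00 and 10.1 with RAD001 and 18.2, 11.8 and 13.01 with GDC0941. All 6 treated values lay below DMSO, and the joint change was -1.04 ± 0.17 (limma, adjusted p = 0.00404). Cars, Aars and Nars fell, with log2 changes of -1.01 ± 0.17 (limma, adjusted p = 0.00514), -0.99 ± 0.15 (limma, adjusted p = 0.00355) and -0.89 ± 0.12 (limma, adjusted p = 0.00205). The falling count was 10 to 15 when single libraries were left out.

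Proliferation genes fell almost without exception, against 8.02% of all genes. All 31 tested mitosis genes fell and all 31 were separated below DMSO, with a median change of -1.64; of 37 S phase and DNA replication genes 36 fell, with a median of -1.15, the exception being the licensing factor Cdt1, named after its value was seen (-0.37, limma, adjusted p = 0.0955). Ccnb1, cyclin B1, measured 19.3, 18.3 and 19.9 FPKM in DMSO, 5.35, 1.71 and 1.87 with RAD001 and 9.27, 2.81 and 2.53 with GDC0941. No treated library overlapped with DMSO, at a joint change of -2.21 ± 0.39 (limma, adjusted p = 0.00578). Top2a, topoisomerase II alpha, fell from 25.4, 28.2 and 29.6 FPKM to 8.57, 3.48 and 3.38 with RAD001 and 13.8, 4.54 and 3.97 with GDC0941. No treated library overlapped with DMSO, at a joint change of -2.14 ± 0.37 (limma, adjusted p = 0.00558). In both genes replicate 1 of each treatment was the highest treated library and still below all of DMSO. Ccna2 (cyclin A2) and Birc5 (survivin) fell, with log2 changes of -2.11 ± 0.41 (limma, adjusted p = 0.00866) and -2.09 ± 0.41 (limma, adjusted p = 0.00943).

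Over the whole mitosis list, the median difference from the DMSO mean was -1.32 in RAD001 replicate 1 and -2.0 and -2.07 in the other two, and -0.73 in GDC0941 replicate 1 and -1.76 and -1.82 in the other two. Replicate 1 thus showed the smaller fall with both inhibitors. Of the S phase genes, the helicase subunits Mcm5 and Mcm6 fell, with log2 changes of -1.99 ± 0.29 (limma, adjusted p = 0.00327) and -1.78 ± 0.29 (limma, adjusted p = 0.00429), the ligase Lig1 by -1.77 ± 0.30 (limma, adjusted p = 0.00537), and Uhrf1, which maintains DNA methylation at the fork, by -2.0 ± 0.35 (limma, adjusted p = 0.00595). Without DMSO replicate 2 the S phase count was 22 of 37, and between 26 and 31 mitosis genes fell when single libraries were left out. Further proliferation genes among the largest shared falls were Tk1, thymidine kinase, and 2810417H13Rik, the gene of a PCNA-associated factor, which changed by -2.04 ± 0.33 (limma, adjusted p = 0.00418) and -2.25 ± 0.42 (limma, adjusted p = 0.00731).

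Promoters of mitotic genes are known for repeated CCAAT boxes, which the factor NF-Y binds, and the letters CCAAT were searched on both strands in the same windows. Top2a and Ccnb1 are shown as examples, with the matches in capitals.
Top2a (chr11:99024190-99024439, minus strand): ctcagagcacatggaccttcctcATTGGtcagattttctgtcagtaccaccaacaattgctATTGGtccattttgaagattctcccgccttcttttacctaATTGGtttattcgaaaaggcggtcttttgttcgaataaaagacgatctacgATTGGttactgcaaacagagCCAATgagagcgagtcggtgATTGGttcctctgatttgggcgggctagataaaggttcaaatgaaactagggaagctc
Ccnb1 (chr13:100786487-100786736, minus strand): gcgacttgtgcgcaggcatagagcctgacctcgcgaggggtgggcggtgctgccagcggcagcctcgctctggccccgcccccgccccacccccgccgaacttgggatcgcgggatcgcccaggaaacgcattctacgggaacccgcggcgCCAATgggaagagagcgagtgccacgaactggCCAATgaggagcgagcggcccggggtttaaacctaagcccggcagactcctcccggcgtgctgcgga
Top2a holds 6 matches, the nearest beginning 58 bases before the start, and Ccnb1 holds 2, at 99 and 67 bases. The letters were found in 19 of 26 mitosis genes with a window (73.1%) and 18 of 30 S phase genes (60%), against 37.5% of all genes with a window.

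Of 17 regulators of G1 and the MYC network 3 rose and 2 fell, beside 7.24% and 8.02% of all genes. Inhibitors of the cyclin-dependent kinases were on both sides. Cdkn2b (p15INK4b) measured 8.26, 2.71 and 3.32 FPKM in DMSO, 47.9, 27.4 and 21.9 with RAD001 and 29.9, 23.3 and 21.5 with GDC0941, more than double the highest DMSO value in each treated library. Every treated library was above every DMSO library, a joint change of 2.43 ± 0.32 (limma, adjusted p = 0.00194). Cdkn2a, which encodes p16INK4a and p19ARF, rose from 146, 154 and 153 FPKM to 398, 259 and 234 with RAD001 and 363, 301 and 368 with GDC0941. Every treated library was above every DMSO library, a joint change of 1.06 ± 0.17 (limma, adjusted p = 0.00404). Myc also rose, by 0.63 ± 0.09 (limma, adjusted p = 0.00342), with 25.1, 19.5 and 23.03 FPKM in DMSO and 32.1 to 39.1 over the treated libraries. Ccnd2, cyclin D2, fell from 18.9, 25.5 and 26.6 FPKM to 15.7, 15.8 and 13.4 with RAD001 and 8.73, 10.05 and 6.78 with GDC0941. The groups did not overlap, and the joint change was -0.99 ± 0.25 (limma, adjusted p = 0.0275). Cdkn2d (-0.63), named after its value was seen, was the other that fell. The Ccnd2 call was lost without DMSO replicate 2, DMSO replicate 3 or GDC0941 replicate 2 (adjusted p 0.0539 to 0.120), and the falling count ran from 0 without DMSO replicate 3 to 5 without GDC0941 replicate 1, with 1 without DMSO replicate 2 or GDC0941 replicate 2 and 4 without RAD001 replicate 1.

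**Figure D3:**
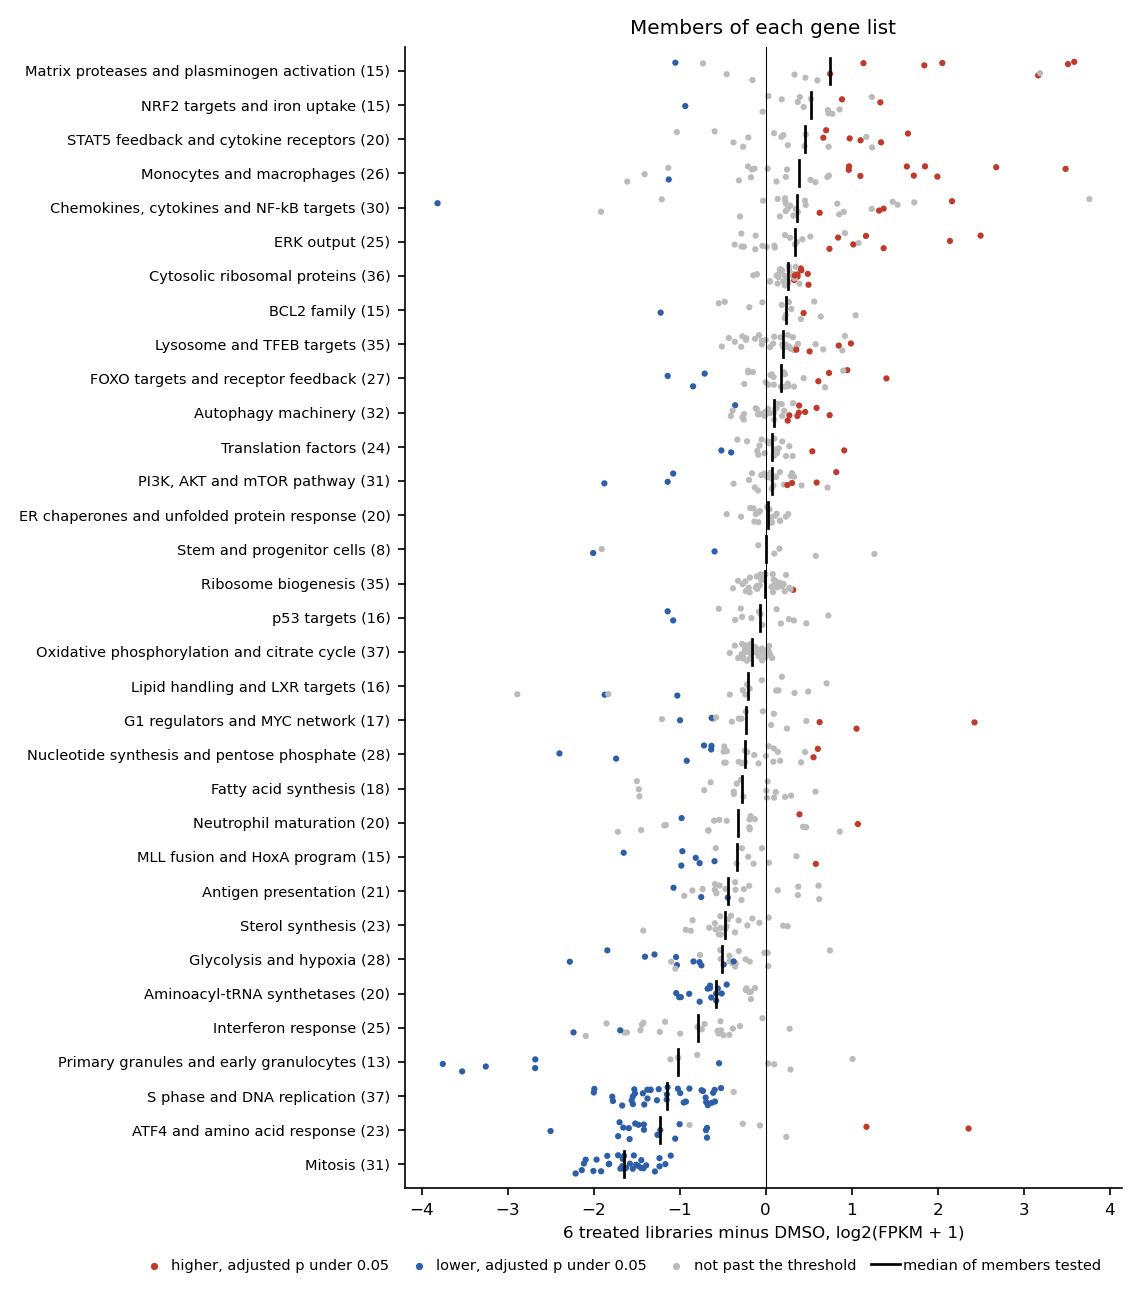
Joint log2 change, 6 treated libraries minus DMSO, of every tested member of the 33 gene lists, ordered by median (black bar), with the number tested in parentheses. Red and blue dots passed the limma test at an adjusted p under 0.05; mitosis, ATF4 and S phase lists lie almost wholly to the left, and matrix proteases have the highest median, 0.75.

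Glycolysis and hypoxia genes fell in 11 of 28 cases and rose in 0, against 8.02% and 7.24% of all genes, with a median of -0.50. Egln3, an oxygen-sensing prolyl hydroxylase that hypoxia induces, measured 29.6, 7.85 and 8.88 FPKM in DMSO, 4.11, 1.31 and 1.20 with RAD001 and 4.78, 0.941 and 0.907 with GDC0941, with replicate 1 above the others in each group. The groups did not overlap, and the joint change was -2.28 ± 0.49 (limma, adjusted p = 0.0141). The mitophagy receptor gene Bnip3 and the pyruvate dehydrogenase kinase gene Pdk1 fell, with log2 changes of -1.40 ± 0.25 (limma, adjusted p = 0.00684) and -1.29 ± 0.33 (limma, adjusted p = 0.0275). Tpi1, triosephosphate isomerase, fell from 503, 319.9 and 346 FPKM to 235, 155 and 144 with RAD001 and 284, 157 and 173 with GDC0941. Both inhibitors kept every library below DMSO, and the joint change was -1.04 ± 0.24 (limma, adjusted p = 0.0167). Some of these calls were lost with 1 library fewer: Egln3 missed without DMSO replicate 1 (limma, adjusted p = 0.0529), Tpi1 without DMSO replicate 1 or 3 (0.0761 at most) and Pdk1 without any 1 DMSO library, RAD001 replicate 2 or GDC0941 replicate 2 (0.111 at most). The change was larger for Tpi1 without DMSO replicate 3 (-1.11) and for Pdk1 without DMSO replicate 2 (-1.39) or 3 (-1.37). Without DMSO replicate 1 it was smaller for Egln3, Tpi1 and Pdk1 (-1.71, -0.84 and -1.12). The falling count was 4, 5 and 4 without DMSO replicate 1, 2 and 3, 7 without RAD001 replicate 2 or GDC0941 replicate 2, and 18 with quantile normalization.

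In nucleotide synthesis, 6 of 28 genes fell and 2 rose, beside 8.02% and 7.24% of all genes. Rrm2 and Rrm1, the subunits of ribonucleotide reductase, accounted for the largest changes: Rrm2 measured 36.3, 35.03 and 34.2 FPKM in DMSO, 10.6, 3.88 and 3.25 with RAD001 and 15.6, 4.06 and 4.25 with GDC0941. Both inhibitors kept every library below DMSO, and the joint change was -2.40 ± 0.41 (limma, adjusted p = 0.00558). Rrm1 fell, with a log2 change of -1.74 ± 0.29 (limma, adjusted p = 0.00478). Mthfd1l, a mitochondrial folate enzyme, and Umps, of pyrimidine synthesis, fell, with log2 changes of -0.92 ± 0.12 (limma, adjusted p = 0.00213) and -0.72 ± 0.12 (limma, adjusted p = 0.00493). Atic, of purine synthesis and named after its values were seen, rose by 0.61. The falling count was 11 without GDC0941 replicate 1, and the rising count was 4 without that library and 1 without DMSO replicate 1 or 2.

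Genes of the ribosome gave fewer calls than the tRNA synthetases. Over all genes 7.24% rose and 8.02% fell. Of 35 ribosome biogenesis genes 1 rose and 0 fell, with a median of 0.00; Ubtf, the RNA polymerase I factor, rose by 0.32 ± 0.08 (limma, adjusted p = 0.027), a call lost without any 1 DMSO library, RAD001 replicate 2 or RAD001 replicate 3 (adjusted p 0.0514 to 0.125), and with quantile normalization 2 members fell. Of 36 cytosolic ribosomal protein genes 8 rose and 0 fell, 21 were separated above DMSO (11.7% of all genes were) and the median was 0.26. Rpl23 measured 603, 598 and 589.9 FPKM in DMSO, 904, 833 and 746 with RAD001 and 757, 877 and 933 with GDC0941. Treated and DMSO libraries did not overlap, a joint change of 0.49 ± 0.09 (limma, adjusted p = 0.00862). With quantile normalization the Rpl23 change was 0.19 and missed the threshold (limma, adjusted p = 0.210). Rpl5, Rps14 and Rplp2 rose by 0.50 ± 0.11 (limma, adjusted p = 0.0164), 0.42 ± 0.11 (limma, adjusted p = 0.0356) and 0.41 ± 0.11 (limma, adjusted p = 0.0347), but each lost its call without any 1 of the DMSO libraries (0.137 at most over all single libraries), Rplp2 also without RAD001 replicate 1 or 2 or GDC0941 replicate 2 and Rps14 without those or GDC0941 replicate 3. The count of 8 was 1 without any 1 DMSO library, 3 and 2 without RAD001 replicate 1 and 2, 15, 2 and 4 without GDC0941 replicate 1, 2 and 3, and with quantile normalization 0 rose and 3 fell.

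Of 24 translation factor genes 2 rose and 2 fell, about the shares over all genes (7.24% and 8.02%). Tpt1, translationally controlled tumour protein, measured 2115, 1815 and 1871 FPKM in DMSO, 5300.2, 4504 and 4045 with RAD001 and 2863, 2720.2 and 3074 with GDC0941, highest with RAD001. All 6 treated values lay above DMSO, and the joint change was 0.91 ± 0.22 (limma, adjusted p = 0.0206); the elongation factor Eef1a1 rose by 0.54 ± 0.10 (limma, adjusted p = 0.00784). The initiation factor genes Eif2s2 and Eif3c fell, with log2 changes of -0.51 ± 0.09 (limma, adjusted p = 0.00495) and -0.40 ± 0.08 (limma, adjusted p = 0.0113). Tpt1 lost its call without any 1 DMSO library (adjusted p 0.0514 to 0.0962), Eef1a1 without DMSO replicate 2 (0.0522) and Eif3c without DMSO replicate 1 or 2 (0.0533 at most). With quantile normalization Tpt1 changed by 0.38 and Eef1a1 by 0.10 (limma, adjusted p = 0.230 and 0.526). The rising count was 0 without DMSO replicate 2, 1 without DMSO replicate 1 or 3 and 0 with quantile normalization; the falling count was 1 without DMSO replicate 1 or 2, and 4 without GDC0941 replicate 1 or with quantile normalization.

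Several metabolic programs gave no joint call. None of 37 oxidative phosphorylation and citrate cycle genes and none of 20 endoplasmic reticulum chaperone genes passed the limma test, with medians of -0.16 and 0.03. Cox4i1, of complex IV, and Atp5b, of the ATP synthase, changed by -0.01 ± 0.11 (limma, adjusted p = 0.955) and -0.22 ± 0.09 (limma, adjusted p = 0.126), and the chaperones Hspa5 and Calr by -0.29 ± 0.21 (limma, adjusted p = 0.382) and -0.08 ± 0.11 (limma, adjusted p = 0.625). Atp5b passed without GDC0941 replicate 1 (-0.26, adjusted p = 0.0455 by limma). Without that library 4 oxidative phosphorylation genes fell, 1 fell without DMSO replicate 1 or GDC0941 replicate 3, and 8 fell with quantile normalization; 1 chaperone gene rose without RAD001 replicate 1.

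Sterol and fatty acid synthesis, driven by SREBP factors, gave 0 joint calls among 23 and 18 tested genes. The median sterol gene changed by -0.96 with RAD001 and by 0.06 with GDC0941. By library it was -0.63 to -1.09 with RAD001 and 0.51, -0.195 and -0.26 with GDC0941, where DMSO replicate 1 was at -0.25. The fatty acid median was -0.32 to -0.47 with RAD001 and 0.49, -0.18 and -0.27 with GDC0941. In both lists GDC0941 replicate 1 was thus above the DMSO mean and replicates 2 and 3 below it, less far than RAD001. RAD001 was lower than GDC0941 for 13 of 23 sterol and 4 of 18 fatty acid genes, beside 5.6% of all genes. Fdps, farnesyl diphosphate synthase, measured 144, 176 and 176 FPKM in DMSO, 75.4, 44.9 and 43.9 with RAD001 and 229, 109 and 137 with GDC0941: RAD001 libraries lay below DMSO and GDC0941 libraries on both sides, and the inhibitors differed by -1.49 ± 0.28 (limma, adjusted p = 0.0111). Sc4mol, a sterol oxidase, differed by -1.01 ± 0.19 (limma, adjusted p = 0.0101) between the inhibitors and by -0.15 ± 0.32 jointly from DMSO. Of the fatty acid genes, Scd2, a desaturase, measured 113, 121 and 133 FPKM in DMSO, 44.4, 16.4 and 12.5 with RAD001 and 184, 61.1 and 55.9 with GDC0941, with GDC0941 replicate 1 above DMSO and every other treated library below, and Mid1ip1 changed jointly by 0.02 ± 0.33 (limma, adjusted p = 0.97). Without GDC0941 replicate 1, 7 sterol and 9 fatty acid genes fell, Scd2 among them (-1.91, adjusted p = 0.0293 by limma), and without RAD001 replicate 3 1 fatty acid gene rose.

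In the list of lipid handling and LXR targets 2 of 16 fell, against 8.02% of all genes. Nr1h3, the gene of the oxysterol receptor LXR alpha, measured 5.32, 3.32 and 3.85 FPKM in DMSO, 1.22, 1.57 and 1.04 with RAD001 and 1.68, 1.62 and 2.01 with GDC0941. No treated library overlapped with DMSO, at a joint change of -1.03 ± 0.16 (limma, adjusted p = 0.00344). Fabp3, a fatty acid binding protein, fell from 5.93, 9.98 and 9.01 FPKM to 0.886, 0.622 and 0.104 with RAD001 and 3.31, 3.30 and 2.87 with GDC0941. Treated and DMSO libraries did not overlap, a joint change of -1.87 ± 0.45 (limma, adjusted p = 0.022), a call lost without DMSO replicate 2 or 3 (adjusted p 0.103 and 0.0932). The count was 1 without DMSO replicate 2 or 3 and 6 without GDC0941 replicate 1.

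Of 35 lysosomal and TFEB target genes 4 rose and 0 fell, with a median of 0.21. The share that rose was near the 7.24% over all genes. Mitf, a transcription factor of the TFEB family, measured 10.7, 8.29 and 8.39 FPKM in DMSO, 20.2, 16.7 and 17.7 with RAD001 and 19.8, 19.8 and 20.2 with GDC0941, evenly raised in all treated libraries. Every treated library was above every DMSO library, a joint change of 0.99 ± 0.10 (limma, adjusted p = 7.44e-04). Tfeb itself rose by 0.51 ± 0.11 (limma, adjusted p = 0.0141), and Atp6ap1, of the proton pump, by 0.36 ± 0.09 (limma, adjusted p = 0.0214); Cd63 (0.85), named after its value was seen, was the fourth. Of 32 autophagy genes 8 rose and 1 fell, against 7.24% and 8.02% of all genes, with a median of 0.10. With PD325901 the list medians were above the DMSO mean too, at 0.18 to 0.33 for autophagy and 0.17 to 0.58 for lysosomal genes. The ATG8 family gene Gabarapl1 measured 32.6, 30.7 and 32.6 FPKM in DMSO, 43.6, 56.2 and 48.8 with RAD001 and 47.6, 72.5 and 61.4 with GDC0941. The groups did not overlap, and the joint change was 0.74 ± 0.15 (limma, adjusted p = 0.00971).

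The autophagy genes Map1lc3a, Atg3 and Atg16l1, all of the machinery that attaches ATG8 proteins to membranes, rose by 0.59 ± 0.16 (limma, adjusted p = 0.0324), 0.46 ± 0.10 (limma, adjusted p = 0.0156) and 0.39 ± 0.09 (limma, adjusted p = 0.0237). Atg4a (-0.35), a protease named after its value was seen, fell. Many of these calls were lost when a DMSO library was left out, which also lowers the power of the test. Gabarapl1 missed without DMSO replicate 2 (adjusted p = 0.0564, limma), Tfeb without DMSO replicate 1 or 2 (0.0653 at most), Atg3 without DMSO replicate 2 or 3 (0.0761 at most), Atp6ap1 and Atg16l1 without any 1 of the 3 (0.107 at most) and Map1lc3a without DMSO replicate 2 or 3, RAD001 replicate 2 or 3 or GDC0941 replicate 3 (0.150 at most). The autophagy count of 8 was 5, 1 and 2 without DMSO replicate 1, 2 and 3 and 5 without RAD001 replicate 2 or 3; its falling count was 0 without DMSO replicate 2 or 3 and 2 without GDC0941 replicate 1. The lysosomal count of 4 was 1 and 2 without DMSO replicate 2 and 3, and 3 lysosomal genes fell without GDC0941 replicate 1. With quantile normalization Atp6ap1 changed by 0.16 and lost its call (limma, adjusted p = 0.313).

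Smaller lists gave few calls. Of 15 NRF2 target and iron uptake genes 2 rose and 1 fell, beside 7.24% and 8.02% of all genes. The list median was 0.53, with 0.85 for RAD001 and 0.27 for GDC0941. By library it was 0.31, 0.99 and 1.01 with RAD001 and 0.06, 0.50 and 0.29 with GDC0941, where DMSO replicate 1 was at 0.15. Prdx1, a peroxiredoxin, measured 1476, 906 and 962 FPKM in DMSO, 3218, 3878 and 3661 with RAD001 and 1546, 2283 and 2639.9 with GDC0941. Both inhibitors kept every library above DMSO, and the joint change was 1.33 ± 0.29 (limma, adjusted p = 0.0145). Gstm1 also rose (0.89, named after its value was seen), and Tfrc, the transferrin receptor, fell, with a log2 change of -0.93 ± 0.20 (limma, adjusted p = 0.0135). Both Prdx1 and Tfrc lost their calls without DMSO replicate 2 or 3 (0.0794 at most); the rising count was 0 without either, 1 without DMSO replicate 1, RAD001 replicate 2 or 3 or GDC0941 replicate 2 or 3, 7 without GDC0941 replicate 1 and 1 with either other scaling. Of 15 BCL2 family genes, Bid, a trigger of the mitochondrial death pathway, fell from 40.1, 53.1 and 55.02 FPKM to 18.5, 24.1 and 23.3 with RAD001 and 18.3, 18.6 and 20.7 with GDC0941. All 6 treated values lay below DMSO, and the joint change was -1.22 ± 0.13 (limma, adjusted p = 8.32e-04). Bcl2l2, an anti-apoptotic member, rose by 0.44 ± 0.12 (limma, adjusted p = 0.033), a call lost without any 1 DMSO library or RAD001 replicate 2 or 3 (0.155 at most). The BCL2 family thus had 1 rise and 1 fall among 15 genes, beside 7.24% and 8.02% of all genes. Its falling count of 1 was 2 without RAD001 replicate 2. Of 16 p53 targets 0 rose and 2 fell, beside 7.24% and 8.02% of all genes, and those that fell were Sesn1 and Sesn2. Without GDC0941 replicate 1, 2 rose.

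Antigen presentation and interferon genes had lower medians with GDC0941 than with RAD001. Of 21 antigen presentation genes 3 fell and 0 rose, beside 8.02% and 7.24% of all genes, with medians of -0.19 with RAD001 and -0.63 with GDC0941. Psmb9, an immunoproteasome subunit, measured 89.9, 163 and 157 FPKM in DMSO, 51.3, 81.9 and 76.3 with RAD001 and 51.3, 49.3 and 71.7 with GDC0941. Treated and DMSO libraries did not overlap, a joint change of -1.07 ± 0.23 (limma, adjusted p = 0.0145). Zbtb46, a dendritic cell factor, fell, with a log2 change of -0.44 ± 0.13 (limma, adjusted p = 0.0446); Psmb8 (-0.75), named after its value was seen, was the third. Of 25 interferon response genes 2 fell, near the 8.02% of all genes, with medians of -0.23 with RAD001 and -1.50 with GDC0941. By library the interferon medians were -1.10, 0.18 and 0.13 with RAD001 and -1.76, -1.41 and -1.34 with GDC0941. Among RAD001 libraries only replicate 1 was thus below the DMSO mean. Ifit2, an interferon-induced antiviral gene, measured 25.6, 17.4 and 20.3 FPKM in DMSO, 1.85, 10.6 and 9.25 with RAD001 and 2.32, 2.16 and 1.80 with GDC0941, RAD001 replicate 1 lying with the GDC0941 libraries. All 6 treated values lay below DMSO, and the joint change was -2.23 ± 0.50 (limma, adjusted p = 0.0163). Gbp3 (-1.69), named after its value was seen, was the other.

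These counts were unstable: Psmb9 missed without DMSO replicate 2 or 3 (adjusted p 0.0823 at most, limma), Ifit2 without any 1 DMSO library (0.0668 at most) and Zbtb46 without any 1 DMSO library, RAD001 replicate 2 or 3 or GDC0941 replicate 2 or 3 (0.158 at most). Antigen presentation falls were 0 without DMSO replicate 2 or 3, 1 without GDC0941 replicate 2 or 3 and 6 without RAD001 replicate 1, and 7 with quantile normalization. Interferon falls were 0 without DMSO replicate 2 or 3, 1 without RAD001 replicate 1 or GDC0941 replicate 2 or 3, and 5 and 6 without RAD001 replicate 2 and 3. In the neutrophil maturation list 2 of 20 rose and 1 fell, near the 7.24% and 8.02% of all genes: the receptor gene Csf3r rose by 0.39 ± 0.12 (limma, adjusted p = 0.0478), Fpr2 by 1.07 (named after its value was seen), and Chi3l3, a chitinase-like protein, fell, with a log2 change of -0.98 ± 0.25 (limma, adjusted p = 0.0291). Both Csf3r and Chi3l3 lost their calls without any 1 DMSO library (0.168 at most), Csf3r also without any 1 treated library except GDC0941 replicate 1. The rising count was 0 without any 1 DMSO library, RAD001 replicate 2 or 3 or GDC0941 replicate 2 or 3, 1 without RAD001 replicate 1 and 0 with quantile normalization; the falling count was 0 without any 1 DMSO library and 2 without RAD001 replicate 2 or GDC0941 replicate 1.

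Where the inhibitors differed was tested directly, although their doses, 26 µM and 20 µM, differed too. RAD001 was above GDC0941 for 731 genes (7.12%) and below for 575 (5.6%) by limma, so 56% of calls were higher with RAD001, and 45.7% with quantile normalization, which gave 700 and 832. Of the 1204 genes separated above DMSO, 71 were higher with RAD001 (0.692% of all tested), 37 lower (0.361%) and 1096 not called. Of the 1084 separated below, 39 were higher (0.38%), 44 lower (0.429%) and 1001 not called. The counts of 731 and 575 were 331 and 189 without RAD001 replicate 2 and 368 and 165 without RAD001 replicate 3; the count of 575 was also 375 and 363 without DMSO replicate 2 and 3 and 339 without GDC0941 replicate 3.

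Mmp13 had the largest difference among genes that both inhibitors raised, RAD001 minus GDC0941 being 2.85 ± 0.28 (limma, adjusted p = 4.85e-04). Nt5e (CD73), which makes adenosine at the cell surface, measured 12.3, 10.5 and 10.7 FPKM in DMSO, 53.9, 58.4 and 62.6 with RAD001 and 22.4, 19.1 and 17.1 with GDC0941, above DMSO with both but higher with RAD001, by 1.54 ± 0.11 (limma, adjusted p = 1.11e-04). Its joint rise of 1.52 ± 0.44 (limma, adjusted p = 0.0446) was lost without any 1 DMSO or RAD001 library (0.148 at most). Among genes separated below DMSO, Aif1 (a macrophage calcium-binding protein), Avil (advillin) and Ifit3 were lower with GDC0941 than with RAD001, with differences of 1.54 ± 0.22 (limma, adjusted p = 0.0028), 1.61 ± 0.29 (limma, adjusted p = 0.00948) and 1.84 ± 0.47 (limma, adjusted p = 0.0355). The Ifit3 difference was lost without any 1 of 7 libraries (adjusted p 0.128 at most), all but DMSO replicate 1 and RAD001 replicate 1. Jointly, Aif1 fell, at -2.33 ± 0.47 (limma, adjusted p = 0.01), a call lost without DMSO replicate 2 or 3 (0.0561 at most). Avil and Ifit3, at -1.51 ± 0.51 and -2.09 ± 0.65, missed the joint threshold (limma, adjusted p = 0.0753 and 0.0571) and passed it without RAD001 replicate 2 or 3.

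Genes separated below DMSO that were lower with RAD001 included Gdf15, a stress cytokine, with 83.4, 48.5 and 59.04 FPKM in DMSO, 5.74, 9.42 and 6.75 with RAD001 and 31.2, 23.9 and 30.3 with GDC0941 and a difference of -1.84 ± 0.22 (limma, adjusted p = 0.00116). Klk1b11, a kallikrein, differed by -2.59 ± 0.47 (limma, adjusted p = 0.00931), Gpx3, a secreted glutathione peroxidase, by -1.49 ± 0.13 (limma, adjusted p = 2.56e-04), and Fabp3 by -1.47 ± 0.22 (limma, adjusted p = 0.00408). Cbr2, a carbonyl reductase, was 7.10, 6.85 and 6.29 FPKM in DMSO, 0, 0 and 0.0571 with RAD001 and 3.55, 1.35 and 1.19 with GDC0941, -1.49 ± 0.24 (limma, adjusted p = 0.00577). Jointly, Gdf15 (-2.03 ± 0.55), Gpx3 (-1.66 ± 0.43) and Cbr2 (-2.18 ± 0.46) fell (limma, adjusted p = 0.0342, 0.0295 and 0.013). Cbr2 lost the call without DMSO replicate 2 or 3 (0.0614 at most), Gpx3 without any 1 DMSO library or RAD001 replicate 2 (0.115 at most) and Gdf15 without any 1 DMSO library or RAD001 replicate 2 or 3 (0.126 at most). Klk1b11, at -2.42 ± 0.82, missed the joint threshold (limma, adjusted p = 0.0769) and passed it without GDC0941 replicate 2 or 3 (0.0472 at most).

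A separate set of genes lay on opposite sides of DMSO: 128 were above DMSO in all RAD001 libraries and below it in all GDC0941 libraries (1.25%), and 102 were the reverse (0.994%). Ppbp, a platelet and neutrophil chemokine, measured 6.95, 3.97 and 2.55 FPKM in DMSO, 201, 182 and 167 with RAD001 and 0.530, 0.595 and 0.719 with GDC0941, a difference of 6.83 ± 0.24 (limma, adjusted p = 2.34e-06) between the inhibitors. Pf4, platelet factor 4, a chemokine of the same family, measured 132, 80.95 and 76.6 FPKM in DMSO, 278, 232 and 215 with RAD001 and 4.35, 4.49 and 3.40 with GDC0941, 5.58 ± 0.20 (limma, adjusted p = 2.34e-06). The 6 megakaryocyte markers, which include Pf4, summed to 78.1 to 135 FPKM in DMSO, 216 to 279 with RAD001 and 5.57 to 7.39 with GDC0941, and outside GDC0941 nearly all of the sum was Pf4. Vwf, another of the 6, was at 0.822 to 2.49 FPKM in DMSO, 0.801 to 0.882 with RAD001 and 1.504 to 2.59 with GDC0941, and the defining genes Gp1ba, Gp9 and Itga2b were below 1 FPKM in all 9 libraries. The part of such cells in these differences was not tested. Lyzl4, Retnlg (a resistin-like granule protein) and Tuba8 followed the same order, with differences of 4.26 ± 0.19 (limma, adjusted p = 8.73e-06), 3.58 ± 0.33 (limma, adjusted p = 3.58e-04) and 3.40 ± 0.32 (limma, adjusted p = 3.70e-04).

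In the reverse set, Pparg, the lipid-sensing nuclear receptor, measured 1.94, 2.40 and 3.23 FPKM in DMSO, 0.731, 0.714 and 1.00 with RAD001 and 5.07, 5.87 and 5.03 with GDC0941, a difference of -1.80 ± 0.15 (limma, adjusted p = 1.81e-04). Sgk1, a kinase downstream of PI3K and a FOXO target, measured 17.9, 19.3 and 16.5 FPKM in DMSO, 14.5, 14.2 and 14.9 with RAD001 and 34.7, 35.5 and 54.6 with GDC0941, -1.43 ± 0.16 (limma, adjusted p = 8.20e-04). Enpp1, Arhgap24 and Npy differed by -1.88 ± 0.20 (limma, adjusted p = 7.38e-04), -1.41 ± 0.14 (limma, adjusted p = 4.52e-04) and -1.33 ± 0.29 (limma, adjusted p = 0.0215), the last of these lost without RAD001 replicate 2 or 3 (adjusted p 0.0721 at most). By list, neutrophil maturation genes were higher with RAD001 in 10 of 20 cases, interferon genes in 14 of 25, antigen presentation genes in 9 of 21 and matrix protease genes in 6 of 15, with 0, 0, 0 and 1 lower. The shares over all genes were 7.12% higher and 5.6% lower. For interferon genes RAD001 replicate 1 lay near the GDC0941 libraries, at a median of -1.10 from the DMSO mean. Mitosis and primary granule genes had 0 calls in either direction.

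**Figure D4:**
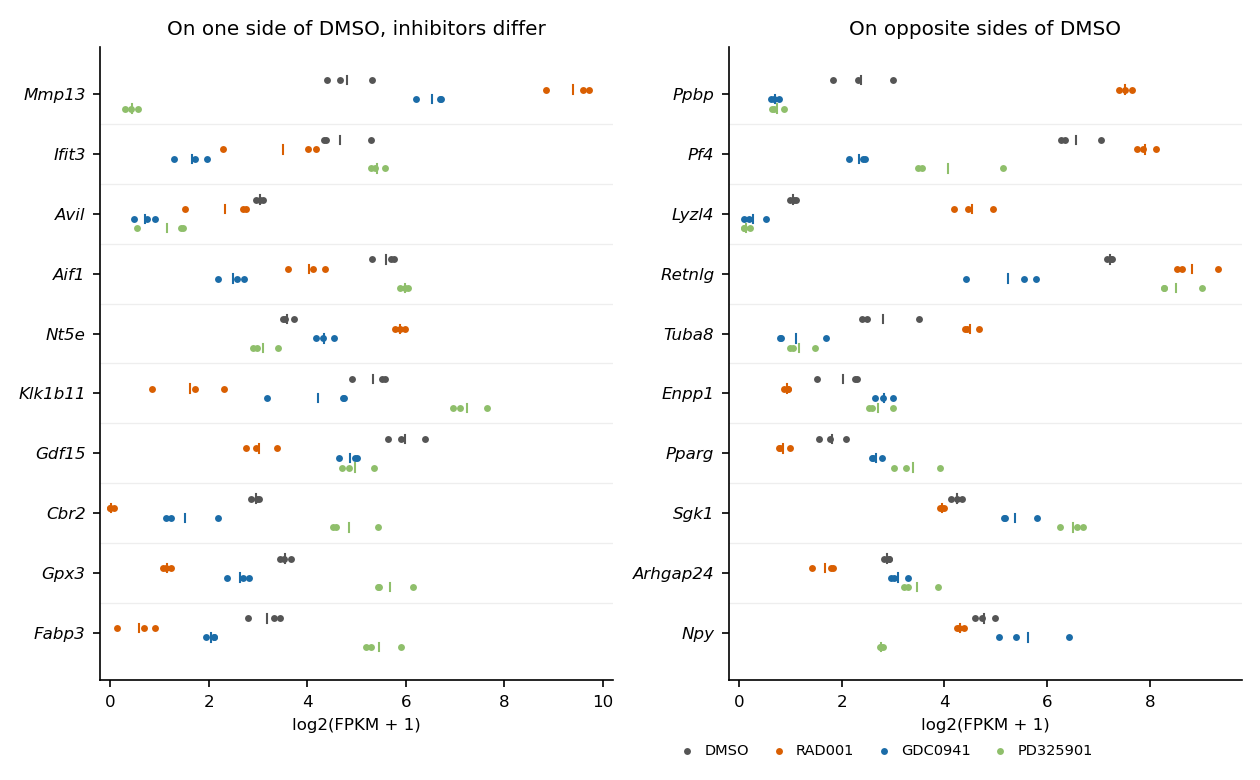
Expression in each library, log2(FPKM + 1), of genes on one side of DMSO with both inhibitors but by different amounts (left) and of genes on opposite sides of DMSO (right). Dots are libraries, short bars means of 3; Ppbp and Pf4 show RAD001 above and GDC0941 below DMSO, and Pparg and Sgk1 the reverse.

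A test of the 6 treated libraries against the 3 PD325901 libraries does not use DMSO. It called 2766 genes higher (27%) and 1675 lower (16.3%) than with the MEK inhibitor. Several of the largest rises stood further from PD325901 than from DMSO: Mmp12 was at 3.85, 4.82 and 4.56 FPKM with PD325901, a difference of 9.37 ± 0.12 (limma, adjusted p = 6.39e-11), and Cd14, Tm7sf4 and Selp differed by 4.22 ± 0.18 (limma, adjusted p = 6.40e-07), 4.53 ± 0.24 (limma, adjusted p = 2.16e-06) and 4.55 ± 0.19 (limma, adjusted p = 4.25e-07). Clec7a and Cd9, of the same ranking, stood nearer to PD325901. They differed from it by 1.49 and 1.46, against 3.49 and 1.97 from DMSO. Egr1 and Myc, at 0.400, 0.530 and 0.439 and 1.20, 1.17 and 0.962 FPKM with PD325901, differed by 4.87 ± 0.27 (limma, adjusted p = 2.68e-06) and 4.10 ± 0.08 (limma, adjusted p = 2.33e-09). By list, 19 of 25 ERK output genes, 35 of 35 ribosome biogenesis genes, 35 of 36 ribosomal protein genes and 22 of 24 translation factors were higher than with PD325901, and 0 of these lists' members lower. The falls of other lists were not particular to RAD001 and GDC0941. With PD325901 the median difference from the DMSO mean was -0.89 to -0.90 for tRNA synthetases and -0.89 to -0.93 for glycolysis genes. For the MLL fusion and HoxA list it was -0.40 to -0.48. Some rises were shared as well, with PD325901 medians of 0.31 to 0.45 for the STAT5 feedback list. Of 32 autophagy genes 14 were lower and 5 higher than with PD325901. Of 35 lysosomal genes 12 were lower and 4 higher.

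Against PD325901, of 31 mitosis genes 0 were higher and 3 lower, and of 37 S phase genes 3 were higher and 3 lower, beside 27% and 16.3% of all genes. The treated libraries differed by replicate here: the median difference of the mitosis genes from DMSO was -1.76 to -2.07 in replicates 2 and 3 of both inhibitors, -1.32 in RAD001 replicate 1, -0.73 in GDC0941 replicate 1 and -1.02 to -1.25 with PD325901. Without replicate 1 of every group Rrm2 (-1.05), Tk1 (-0.93) and 2810417H13Rik (-1.15) were called lower than with PD325901 (limma, adjusted p = 0.00144, 0.00279 and 0.00179). Ccnb1, with 5.05, 6.06 and 6.52 FPKM under PD325901, and Mcm5, with 6.59, 8.05 and 6.97, differed by -0.65 ± 0.39 (limma, adjusted p = 0.201) and -0.31 ± 0.29 (limma, adjusted p = 0.425). Primary granule genes were lower than with PD325901 in 10 of 13 cases and higher in 2. Elane, at 37.3, 26.8 and 24.7 FPKM with PD325901, differed by -3.54 ± 0.43 (limma, adjusted p = 1.78e-04), Mpo by -2.43 ± 0.37 (limma, adjusted p = 5.83e-04) and Ms4a3 by -2.0 ± 0.20 (limma, adjusted p = 5.76e-05). Ctsg differed less from PD325901, by -1.31 (limma, adjusted p = 0.00463), than from DMSO, by -3.25. Phgdh was low with all 3 inhibitors, 6.28, 8.53 and 8.88 FPKM with PD325901, and its difference of -0.39 ± 0.14 (limma, adjusted p = 0.0429) was lost without RAD001 replicate 2 or 3, GDC0941 replicate 2 or PD325901 replicate 2 or 3 (0.176 at most). Ccl12 fell below DMSO with both inhibitors but stayed above PD325901, at 1.66, 0.383 and 0.146 FPKM, by 1.97 ± 0.49 (limma, adjusted p = 0.00974).

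**Figure D5:**
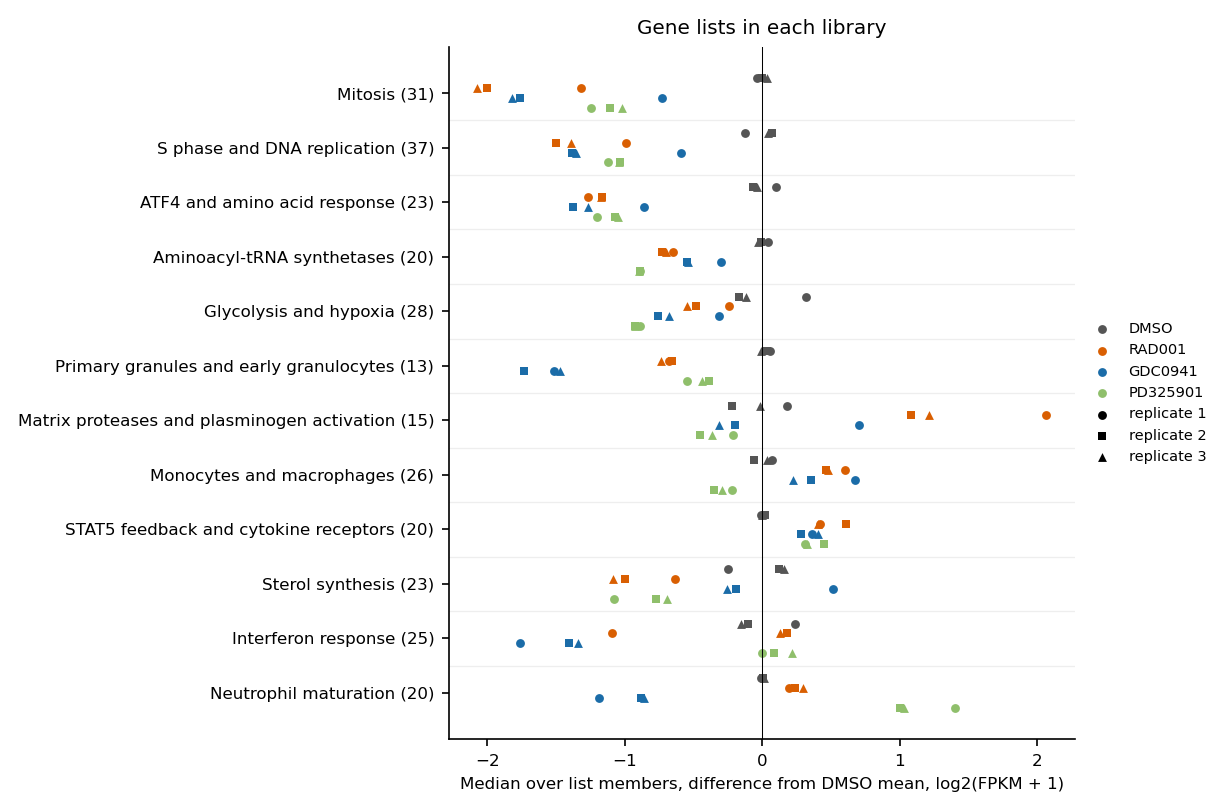
Median over the tested members of 12 gene lists in each library, as the difference from the DMSO mean on the log2(FPKM + 1) scale, with colours for groups and symbols for replicates. RAD001 and GDC0941 fall together for mitosis, S phase and ATF4 genes, with replicate 1 nearest to DMSO for mitosis and S phase, and part for sterol, interferon and neutrophil genes, with RAD001 replicate 1 near GDC0941 for interferon genes; the DMSO values surround 0 because they set it.

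The remaining large shared falls were Folr2, a folate receptor of macrophages, at -2.49 ± 0.31 (limma, adjusted p = 0.00174), and Ckb, brain-type creatine kinase, at -2.05 ± 0.42 (limma, adjusted p = 0.0118). The Ckb call was lost without DMSO replicate 2 (limma, adjusted p = 0.0537). Of 8 markers of the labelled cell type 7 reached a mean of 1 FPKM, and not all were high. The leukocyte gene Ptprc was at 91.3 to 133 FPKM, Itgam at 331 to 832, Csf1r at 144 to 312 and the myeloid factor Sfpi1 (PU.1) at 283 to 393 in the 9 libraries. Mpo fell with both inhibitors, Hoxa9 was low in every library and Lyz2 was listed at 0 throughout, as given above. Of 10 T and NK cell markers none reached a mean of 1 FPKM, and their sum was 0.465 to 6.65 FPKM in DMSO, 0.481 to 4.37 with RAD001 and 0.133 to 1.85 with GDC0941. The 8 erythroid markers summed to 0.265 to 2.15 FPKM over the 9 libraries. The B cell genes Ms4a1 and Pax5 were below 0.07 FPKM, while Cd79b was separated below DMSO and fell (-1.44), as did the endothelial and leukocyte gene Pecam1 (-1.58); both were named after their values were seen. The 5 B cell markers in the table summed to 4.59 to 5.96 FPKM in DMSO, 0.961 to 2.13 with RAD001 and 0.643 to 2.23 with GDC0941, and the 8 stromal and endothelial markers to 15.1 to 20.6, 10.2 to 11.5 and 3.98 to 5.46. The part of such cells in any result was not tested.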

How the data were processed

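RNA-seq libraries were made from total RNA by standard Illumina protocols, per the labels' protocols. The authors deposited FPKM values per gene. TopHat2 2.0.4, Cuffdiff and the build mm9 are named in the submitters' processing notes. For the annotation, for Cuffdiff's version and for any scaling of one library to another, the answer is not given in the sources used here. FPKM are not counts, so limma 3.58.1 in R 4.3.3 was run on log2(FPKM + 1) with a trended prior. The tests were two-sided, Benjamini-Hochberg adjustment ran over the 10260 genes whose mean reached 1 FPKM, and the threshold was 0.05. Fold changes on this scale understate those of low genes.

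The joint fit compared 6 with 3 libraries, so its error holds the difference between the inhibitors. A fit with 3 group means gave each inhibitor's change and RAD001 minus GDC0941. Members and gene lists were chosen with earlier results of these data known.

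Named genes were the 14 largest rises and falls by the smaller single-inhibitor change, among genes separated, called and at 5 FPKM or more. Each list added up to 4 such members, or its 2 most abundant. The 5 largest differences between inhibitors each way were added, among separated genes and among genes on opposite sides of DMSO, and so were the targets. Other genes were chosen after their values were seen. Alternatives covered pseudocounts, filters, scaling, library weights, the replicate number as a block and left-out libraries. Same-numbered RAD001 and GDC0941 libraries deviated together from their group means across genes (correlations of 0.584, 0.492 and 0.311). The labels do not give pairs, and all reported fits were unpaired. With the replicate block, run only as an alternative, RAD001 minus GDC0941 called 1038 genes higher and 786 lower, against 731 and 575 reported. The fits were tested on simulated data. Some genes are not reported here.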

Additional observations from a re-analysis of the deposited data

Results flagged for a closer look

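Among the 6 treated libraries of each of the 137 genes named by rule, the highest or lowest library was tested for a gap to its nearest neighbour of more than 0.625 of the whole range (Dixon's 95% value for 6), and 6 genes had one. Chance gives about 1 in 20 groups, and the 6 libraries hold both inhibitors. GDC0941 replicate 1 was the library in 5 of the 6. For A430084P05Rik it was lowest, at 35.04 FPKM against 53.9 to 56.7 in the others, and for the elongation factor gene Eef1a1 it was lowest, at 4144 FPKM against 4811 to 5158. It was highest for Ccl12, at 20.07 FPKM against 3.07 to 5.46, for the asparaginyl-tRNA synthetase gene Nars, at 76.66 against 52.6 to 59.4, and for Umps, at 7.888 against 5.17 to 5.75. The other was Mtor, where GDC0941 replicate 3 was lowest, at 3.706 FPKM against 5.27 to 6.42.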

How the results depend on the processing

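With library weights the joint test called 2933 genes higher and 2826 lower, RAD001 minus GDC0941 called 1508 and 1153, and 2744 genes were lower than with PD325901. With 3 group means the joint counts were 1305 and 1333. With a filter at a mean of 5 FPKM, which tests fewer genes, 451 genes were called lower and 640 were separated below. Without replicate 1 of every group, RAD001 minus GDC0941 called 1621 and 1318, and 2360 and 2561 genes were separated above and below, over fewer libraries. Leaving out single libraries gave 229 to 1027 higher and 364 to 1265 lower jointly, 331 to 858 and 165 to 654 between the inhibitors, 2032 to 2827 and 1226 to 1903 against PD325901, and 1231 to 1708 and 1125 to 1710 separated. The cause was not tested. With the replicate block the counts were 656 and 808, 1038 and 786, and 2693 and 1655. For DMSO and GDC0941 the same-numbered deviations correlated at 0.302, 0.099 and 0.0359, so the numbers were not taken as pairs in the joint test, and DMSO and RAD001 correlated at 0.201 or more. The block ended 7 of the joint calls of named genes and added that of Pik3cb (adjusted p = 0.00955, limma). Between RAD001 and GDC0941 it changed no call of a named gene. Libraries matched best with their own number in 1 (DMSO and RAD001), 1 (DMSO and GDC0941) and 2 (RAD001 and GDC0941) of 3 pairs.

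Of 110 named genes called jointly, 44 lost the call without some single library, and 14 without some treated library. Mid1ip1 reversed with library weights, to -0.44 (limma, adjusted p = 0.0402). No value called in the reported fit changed sign in the alternatives run. Joint changes of Pf4 and Sgk1, called with 3 group means (-1.44 and 0.43), were 0.66 and -0.05 with library weights, and those of Tuba8, Enpp1 and Pparg, called with library weights (1.40, -1.02 and -0.80), also took the other sign under some alternative. Absolute depth is unknown, so the precision of low genes such as Csf3 could not be computed.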
